A study of Homo sapiens with 4 samples.

Results

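Chemokine transcripts were examined in PC3 cells that express PDEF and in vector control cells. Chemokines are small secreted proteins that guide leukocytes along a gradient, and they are grouped as CXC, CC or CX3C by the spacing of their first cysteines. The CXC chemokines CXCL1, CXCL2, CXCL3, CXCL5, CXCL6 and CXCL8 carry a glutamate-leucine-arginine motif before the first cysteine and act on the receptors CXCR1 and CXCR2, through which they recruit neutrophils and promote vessel growth. Carcinoma cells commonly transcribe these genes after stimulation by IL-1 or TNF, through NF-kB and AP-1 factors, and PC3 is known as a high producer of CXCL8. The set held 10 of the 18417 genes measured, namely these 6, CXCL16, CX3CL1, CCL2 and CCL20. The genes were chosen by name with earlier results from these same arrays in view, and each was read from 1 probe set. The difference between the groups is therefore given as a description of the 10 genes, with no test.

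The study used RNA of the human prostate cancer line PC3, which was established from a bone metastasis and is androgen-independent. PDEF-PC3 cells were stably transfected with PDEF, the protein of the gene SPDEF, and VC-PC3 cells carried the empty pBABE vector, although the sample labels call this control PC3-SCR. Each group had 2 arrays, each a log2 signal of total RNA on an Affymetrix human gene array, and both groups were grown in DMEM/F12 with serum. No source used here says whether the transfected cells were 1 clone or a pool, or whether the 2 arrays stand for 2 cultures. Errors and p-values thus cover the spread from array to array alone, and this may be technical.

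SPDEF had log2 signals of 6.85 and 6.73 in PDEF-PC3 cells and of 5.99 and 6.06 in VC-PC3. CTNNA1 and STAT3, which PC3 is known to have lost from both chromosomes, had log2 signals of 9.76 and 9.86, and of 9.06 and 9.05, in the PDEF-PC3 arrays. In VC-PC3 they had 4.77 and 4.07, and 4.51 and 4.70. The PDEF-PC3 arrays therefore go against the PC3 label for these genes, and whatever separates the cells of the groups in this respect cannot be told apart from the expression of PDEF in any result below. Of 5 epithelial genes, 3 were lower in PDEF-PC3 and 0 higher by limma at an adjusted p under 0.05. By the same test, 24.0% of all 18417 genes were lower and 26.7% higher. KRT19 had 5.85 and 5.57, the second not above the background gauge described next, in PDEF-PC3, against 7.84 and 7.67 in VC-PC3 (adjusted p = 3.69e-05). EPCAM had 5.65 and 6.53, the first at the gauge, in PDEF-PC3, against 7.81 and 7.74 in VC-PC3 (adjusted p = 0.00212), but its adjusted p was 0.101 without VC-PC3 replicate 1 and 0.0946 without VC-PC3 replicate 2. KRT8 was lower too, with 9.29 and 9.24 in PDEF-PC3 cells and 9.91 and 9.89 in VC-PC3 (adjusted p = 0.000852). KRT18 (adjusted p = 0.0882) and CDH1 (adjusted p = 0.698) did not pass, and CDH1 was not above the gauge in any array. As a gauge of background, the highest of 341 olfactory receptor genes, genes used by sensory neurons of the nose, had signals of 5.65 and 5.75 in PDEF-PC3 cells and of 5.94 and 6.01 in VC-PC3. No leukocyte marker of 8 listed and no endothelial marker of 5 exceeded this gauge in any array. The summed linear signal of the leukocyte markers was 135.5 to 135.8 in PDEF-PC3 cells and 147.0 to 148.3 in VC-PC3. That of the endothelial markers was 70.2 to 73.0 in PDEF-PC3 cells and 84.2 to 96.1 in VC-PC3. Of 5 fibroblast markers, only COL1A1 exceeded the gauge, and the sums were 216.5 to 241.0 in PDEF-PC3 cells and 436.5 to 513.5 in VC-PC3. The part of these differences in the results was not tested.

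The 6 CXC genes with the glutamate-leucine-arginine motif lie in 1 cluster on the long arm of chromosome 4, and their upstream sequences are shown because these genes differed together between the groups. An upstream window, the 250 bases before the start of the gene in the RefSeq gene models of GRCh38.p14, was at hand for 7 of the 10 genes. None was at hand for CXCL16, CX3CL1 and CCL2, which were not searched. All 6 cluster genes held the letters GGAATTTCC, a binding element of NF-kB proteins, on the strand of the gene between positions -91 and -69 from the start. The seventh gene, CCL20, did not hold these letters, on either strand, in its window. Of all 35116 upstream windows in the table, 0.413% held them on either strand. These letters, like the other elements described below, were chosen after the sequences were seen, so nothing is read from this contrast. In the sequences below, which run 5′ to 3′, the capitals mark these letters.
CXCL8 (chr4:73740458-73740507, plus strand): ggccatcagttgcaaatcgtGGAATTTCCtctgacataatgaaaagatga
CXCL6 (chr4:73836569-73836618, plus strand): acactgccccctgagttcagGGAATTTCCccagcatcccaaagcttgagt
CXCL5 (chr4:73998738-73998787, minus strand): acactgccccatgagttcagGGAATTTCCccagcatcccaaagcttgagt
CXCL1 (chr4:73869295-73869344, plus strand): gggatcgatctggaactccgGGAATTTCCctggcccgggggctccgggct
CXCL3 (chr4:74038738-74038787, minus strand): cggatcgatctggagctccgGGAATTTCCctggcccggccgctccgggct
CXCL2 (chr4:74099243-74099292, minus strand): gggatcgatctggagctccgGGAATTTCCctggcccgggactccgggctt

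The windows fell into pairs and trios of like sequence. Over the 250 bases, the windows of CXCL5 and CXCL6 were 85.3% identical in a global alignment, those of CXCL1 and CXCL3 81.4%, those of CXCL2 and CXCL3 73.3% and those of CXCL1 and CXCL2 68.0%. The window of CXCL8 was 40.5% to 45.0% identical to those of the other 5 cluster genes, close to the 42.1% to 48.2% between CCL20 and any of the 6. CXCL8 alone among the 7 held an AP-1 element, written TGANTCA and reading the same on both strands, which 6.57% of all windows hold. The 150 bases before the CXCL8 start are given to show how this element stands beside the NF-kB element, with both in capitals.
CXCL8 (chr4:73740419-73740568, plus strand): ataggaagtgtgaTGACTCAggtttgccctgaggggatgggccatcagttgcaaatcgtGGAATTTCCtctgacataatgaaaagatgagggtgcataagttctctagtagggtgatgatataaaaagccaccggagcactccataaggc
The letters CCGGAT, the core of an ETS element of the kind that PDEF binds, were in the CXCL3 window only of the 7, against 5.85% of all windows on either strand. The letters GGAATG, a TEAD element, were in the CCL20 window only, against 11.9% of all windows. These matches overlap no NF-kB or AP-1 match, and they describe the letters in these windows, not binding.

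CXCL8, which encodes interleukin-8, had log2 signals of 6.64 and 6.87 in PDEF-PC3 cells, against 11.00 and 10.79 in VC-PC3. Its signal in PDEF-PC3 was 17.6-fold lower (log2 fold change -4.14, standard error 0.12), the largest among the cluster genes measured above background in both groups. Both PDEF-PC3 arrays stayed above the gauge of background, so CXCL8 was lower but still measured there.

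CXCL6, the closest relative of CXCL5, had signals of 7.32 and 7.25 in PDEF-PC3 cells, against 10.57 and 10.70 in VC-PC3. The difference was 10.2-fold (log2 fold change -3.35, standard error 0.090). CXCL5, which recruits neutrophils from epithelium, had 10.40 and 10.34 in PDEF-PC3 cells, against 12.68 and 12.74 in VC-PC3, a 5.06-fold lower signal (log2 fold change -2.34, standard error 0.083). Both genes were lower in each PDEF-PC3 array than in either VC-PC3 array, and both were above the gauge in all 4 arrays.

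CXCL1, CXCL2 and CXCL3 encode the GRO proteins, which are near-identical to each other, and probes of 1 may take up signal from another. CXCL1 had signals of 8.86 and 8.96 in PDEF-PC3 cells, against 12.11 and 12.09 in VC-PC3 (log2 fold change -3.19, standard error 0.084). CXCL3 had 6.52 and 6.19 in PDEF-PC3 cells, against 8.60 and 8.46 in VC-PC3, which is 4.52-fold lower (standard error of the log2 value 0.13) and the smallest difference in the cluster. CXCL2 had 5.38 and 5.47 in PDEF-PC3 cells, against 8.89 and 8.92 in VC-PC3. Its PDEF-PC3 signals were not above the gauge in either array, so its difference is given as at least 9.22-fold, with the gauge in place of the dim signals. For each of the 6 cluster genes the groups did not overlap, and the arrays of a group differed by at most 0.33 on the log2 scale. The groups also did not overlap for 3 of the other 4 members. The share of all genes without overlap was not counted, so nothing is read from this.

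The other members were near background in both groups. CXCL16, a membrane-anchored chemokine that also binds oxidized lipoprotein, had signals of 5.40 and 5.24 in PDEF-PC3 cells, against 4.74 and 4.83 in VC-PC3. Both PDEF-PC3 arrays were thus above both VC-PC3 arrays, but no fold is given for signals at background in both groups. CX3CL1, the other membrane-anchored chemokine, had 5.53 and 5.49 in PDEF-PC3 cells and 5.73 and 5.62 in VC-PC3. CCL2, a monocyte attractant, had 3.89 and 3.97 in PDEF-PC3 cells and 4.11 and 3.91 in VC-PC3, so that the groups overlapped. CCL20, which attracts cells with CCR6, had 3.73 and 3.47 in PDEF-PC3 cells and 3.75 and 3.76 in VC-PC3. These 4 genes were not above the gauge in any array, so a change in a low level of their transcripts may have escaped measurement.

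**Figure D1:**
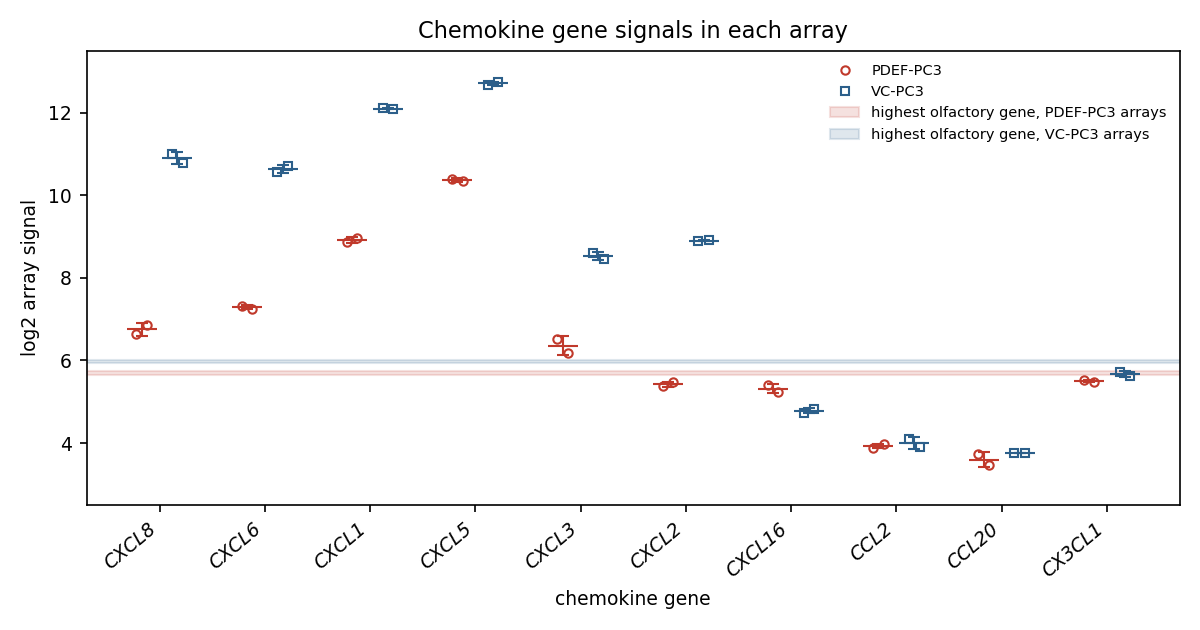
Log2 array signal (vertical axis) of each of the 10 chemokine genes (horizontal axis) in the arrays of PDEF-PC3 (circles) and VC-PC3 (squares), with the group mean (line) and SD (bar, n = 2), and bands for the highest olfactory receptor gene of each group's arrays. The cluster genes from CXCL8 to CXCL2 lie between 5.38 and 10.40 in PDEF-PC3 cells, against 8.46 to 12.74 in VC-PC3, while the other 4 genes lie below the bands in both groups.

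In all, 6 of the 10 genes were at least 2-fold lower in PDEF-PC3 cells and 0 were at least 2-fold higher, where 6.07% of all 18417 genes were at least 2-fold lower and 8.68% at least 2-fold higher. The median log2 fold change of the 10 genes was -2.26, that of the 6 cluster genes was -3.27, and that of all genes was -0.05. Since the genes were chosen with these differences known, nothing is read from these counts. Without any 1 of the 4 arrays, 6 genes were still at least 2-fold lower, and CXCL8 had log2 fold changes between -4.25 and -4.03 over all settings tried.

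The genes around the cluster were compared next, to see where along the chromosome the lower signals ended. In the RefSeq order, the cluster runs from CXCL8 to CXCL2 and holds PF4V1, PF4 and PPBP between its members, which are chemokine genes of platelets. PF4 had 5.05 and 5.19 in PDEF-PC3 cells against 5.49 and 5.42 in VC-PC3, and PPBP had 3.77 and 3.94 against 4.52 and 4.24, both of them lower (limma, adjusted p = 0.022 and 0.012). PF4V1 did not pass the test (adjusted p = 0.574). All 3 were not above the gauge in any array, so the lower signals inside the cluster that exceeded background were those of the 6 members.

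Beyond CXCL2 the lower signals went on for the adjoining pair of genes. EPGN, which encodes epigen, a ligand of the EGF receptor, had signals of 6.47 and 6.42 in PDEF-PC3 cells, against 10.18 and 10.14 in VC-PC3. The signal fell 13.1-fold (log2 fold change -3.71, standard error 0.081, limma, adjusted p = 2.66e-06). MTHFD2L, a mitochondrial enzyme of folate metabolism whose gene adjoins CXCL2, had 5.44 and 5.82 in PDEF-PC3, of which only the second was above the gauge, against 8.28 and 8.24 in VC-PC3 (log2 fold change -2.63, standard error 0.13, adjusted p = 2.13e-05). The next ligand genes, EREG and BTC, also fell (adjusted p = 0.00148 and 0.0232), but their signals were not above the gauge in either group.

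Farther along, the direction turned. PARM1, a mucin-like membrane protein, had signals of 6.89 and 6.97 in PDEF-PC3 cells, against 4.50 and 4.58, not above the gauge, in VC-PC3, which is at least 1.94-fold higher (adjusted p = 6.31e-06). RCHY1, a ubiquitin ligase that acts on p53, rose by 1.21 on the log2 scale (adjusted p = 7.61e-05), with 8.21 and 8.33 in PDEF-PC3 cells against 7.04 and 7.08 in VC-PC3. The kinase gene CDKL2 had 6.81 and 6.75 in PDEF-PC3 cells, against 4.78 and 5.04, not above the gauge, in VC-PC3, at least 1.75-fold higher (adjusted p = 3.46e-05). On the side of CXCL8, of 10 genes 1 was lower, COX18, and 3 were higher, and none of these 10 differed by 2-fold. Of the 10 genes beyond CXCL2, 4 were lower and 5 higher. By the same test, 24.0% of all genes were lower and 26.7% higher. Whether runs of 1 direction along the chromosome exceed those elsewhere was not tested. RASSF6, the gene next to CXCL8, was near background in both groups, with 3.55 and 3.87 in PDEF-PC3 cells and 3.79 and 4.14 in VC-PC3.

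Over all 23 genes that surround the 6 members, 7 were lower and 8 higher at an adjusted p under 0.05, with a median log2 fold change of -0.12, where 24.0% of all genes were lower and 26.7% higher by the same test. Without 1 array the number lower was 3 without either PDEF-PC3 array, 4 without VC-PC3 replicate 1 and 5 without VC-PC3 replicate 2, and 5 were higher without PDEF-PC3 replicate 2. Of the 23 genes, 21 had an upstream window at hand. None of these held GGAATTTCC on either strand, those of MTHFD2L and EPGN included. Only 0.413% of all windows hold these letters, so nothing is read from their absence here.

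**Figure D2:**
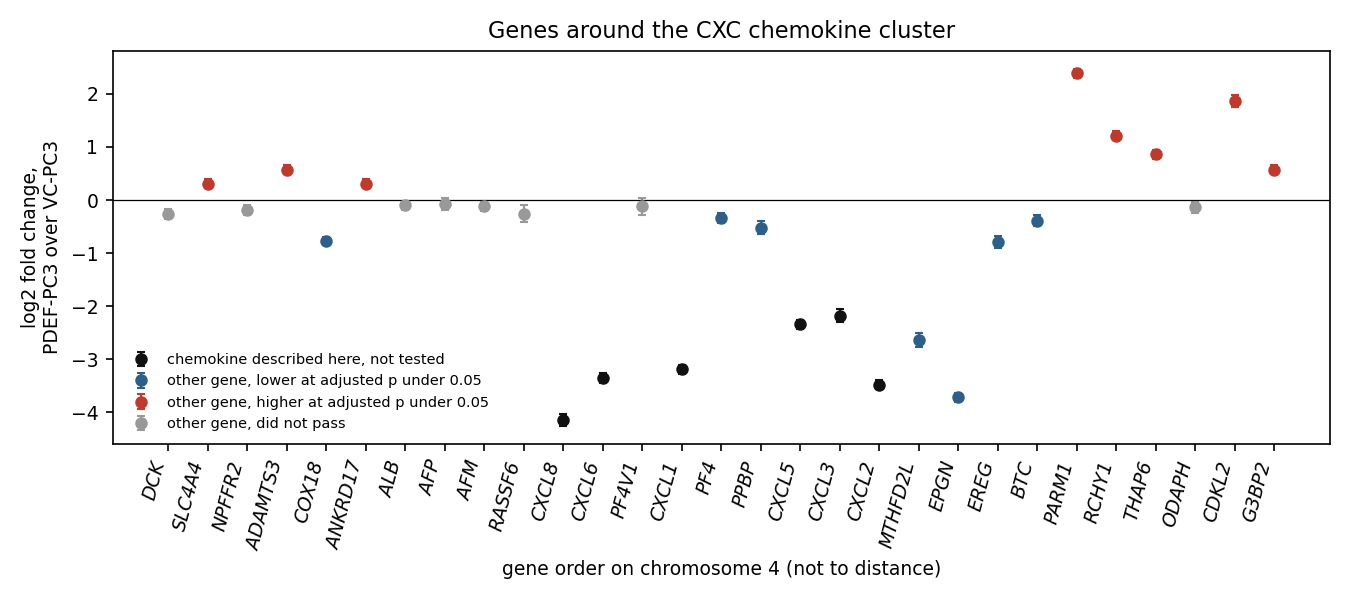
Log2 fold change of PDEF-PC3 over VC-PC3 (vertical axis, points with the standard error as a bar) for genes in their order along chromosome 4 (horizontal axis, not to distance), with the members in black, other genes lower in blue, other genes higher in red and genes that did not pass in grey. Apart from PF4V1, PF4 and PPBP, the genes from CXCL8 at -4.14 to EPGN all lie below -2, and PARM1 at 2.39 is the first gene on the higher side after them.

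The rest of the chemokine family was near background in both groups. Of 34 further chemokine genes listed, 30 were measured with a probe set of their own, and none was above the gauge in any array, with highest signals of 5.42 in PDEF-PC3 cells and 5.60 in VC-PC3. At an adjusted p under 0.05, 6 of these 30 were lower in PDEF-PC3 cells and 0 higher, against 24.0% and 26.7% of all genes, so the share lower was not above that of all genes. Their median log2 fold change was -0.13. CCL28, an attractant made by mucosal epithelium and named here after its values were seen, had the lowest adjusted p of these. It had 3.82 and 3.66 in PDEF-PC3 cells, against 5.18 and 4.86 in VC-PC3 (limma, adjusted p = 0.000306). The interferon-induced chemokines CXCL9, CXCL10 and CXCL11 had signals from 2.69 to 3.12 in all arrays, with adjusted p of 0.366 to 0.873. CXCL12, the ligand of CXCR4, had 3.55 and 3.49 in PDEF-PC3 cells and 3.77 and 3.81 in VC-PC3 (adjusted p = 0.0332). The count of 6 was smaller without any 1 array. It was 0 when genes below the median level were left out, since that removed all 30 from the test.

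The receptors of these chemokines were hardly measurable. CXCR1 and CXCR2, the receptors of the 6 cluster chemokines, had signals of 3.29 and 3.11, and of 2.96 and 2.97, in PDEF-PC3. In VC-PC3 they had 3.13 and 3.40, and 3.0 and 3.17, within the range of the olfactory receptor genes (adjusted p = 0.69 and 0.325). The receptors of the other members, CXCR6 for CXCL16, CX3CR1 for CX3CL1, CCR2 for CCL2 and CCR6 for CCL20, had signals of 3.03 to 3.69 over all 4 arrays, with adjusted p of 0.406 to 0.972. Of 23 receptor genes listed, 21 were measured, 2 were lower and 1 was higher, with a median log2 fold change of -0.09. Both shares were below the 24.0% lower and 26.7% higher of all genes.

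The receptor gene called higher, CXCR4, had 5.92 and 5.81 in PDEF-PC3, just above the gauge of those arrays, against 5.53 and 5.48, not above the gauge, in VC-PC3 (adjusted p = 0.0136). No fold is given, since the PDEF-PC3 signals did not exceed the gauge of the VC-PC3 arrays. No other receptor gene was above the gauge. Those called lower, at background in both groups, were CCR4 (adjusted p = 0.03) and ACKR3, a scavenger of CXCL12, with 3.48 and 3.73 in PDEF-PC3 cells and 4.25 and 4.54 in VC-PC3 (adjusted p = 0.00316). These 3 were named after their values were seen. Without any 1 array CXCR4 was no longer called, and 0 to 1 receptor genes were lower.

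**Figure D3:**
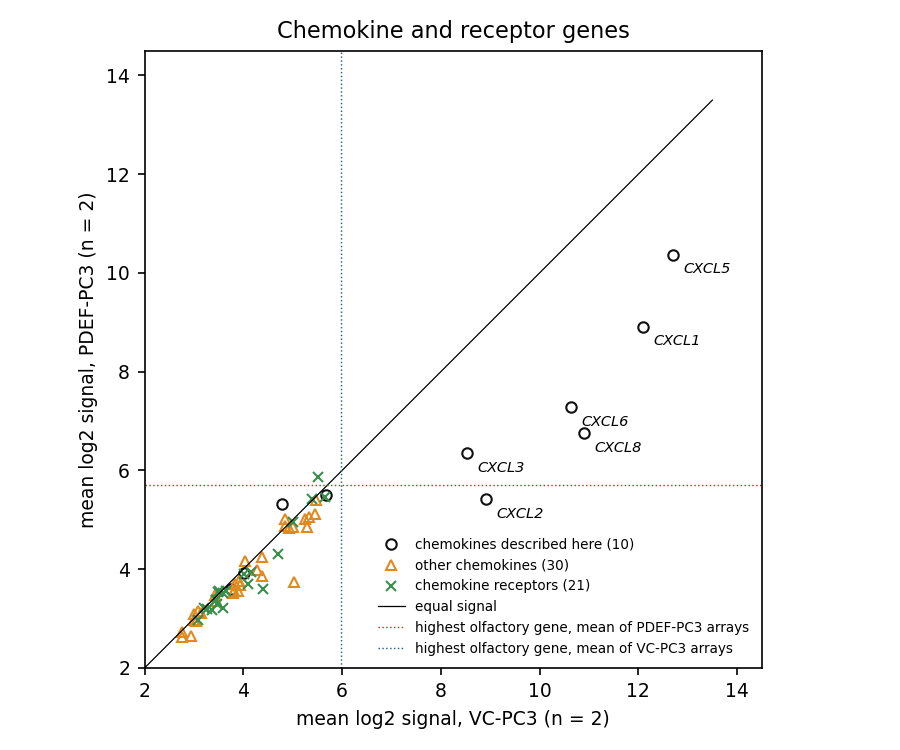
Mean log2 signal in PDEF-PC3 (vertical axis, n = 2) against mean log2 signal in VC-PC3 (horizontal axis, n = 2) for the 10 chemokine genes described here (circles), 30 other chemokine genes (triangles) and 21 receptor genes (crosses), with the line of equal signal and dotted lines at the highest olfactory receptor gene. The 6 cluster genes lie far below the line of equal signal, and no other chemokine gene exceeds the dotted lines.

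Membrane-anchored chemokines are released by the proteases ADAM10 and ADAM17. ADAM10 had signals of 9.49 and 9.54 in PDEF-PC3 cells and 9.57 and 9.58 in VC-PC3 (adjusted p = 0.571), and ADAM17 had 8.80 and 8.84 in PDEF-PC3 cells and 8.89 and 8.95 in VC-PC3 (adjusted p = 0.351). DPP4, which trims several chemokines, did not pass the test either (adjusted p = 0.0609), and its signals were not above the gauge in any array.

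Regulators of chemokines were taken from a list of 40, which came from the same knowledge of earlier results. The list held inducers, transcription regulators, mRNA decay regulators and the 3 proteases above, which did not pass. Of 39 measured, 20 fell and 7 rose, and 12 did not pass, where 24.0% of all genes were lower and 26.7% higher. Their median log2 fold change was -0.40. Since the list was chosen with earlier results known, nothing is read from these counts or from those of its parts below. Among the inducers and their signalling proteins, 7 of 11 fell and 2 rose, again beside 24.0% and 26.7% of all genes. The cytokine genes IL1A, at least 27.3-fold lower, and IL1B, 25.2-fold lower, stood out. In PDEF-PC3, IL1A had 5.46 and 5.48, not above the gauge, and IL1B had 8.06 in both arrays. In VC-PC3, IL1A had 10.51 and 10.43 and IL1B had 12.75 and 12.68.

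TNF, the other classical inducer, was near background, with 4.06 and 4.17 in PDEF-PC3 cells and 4.28 and 4.15 in VC-PC3 (adjusted p = 0.41). LTBR, the lymphotoxin receptor, fell by 2.67 on the log2 scale (adjusted p = 8.18e-06), with 5.74 and 5.70, of which only the first was above the gauge, in PDEF-PC3 cells against 8.50 and 8.27 in VC-PC3. MYD88, the adaptor of IL-1 and Toll-like receptors, had 5.16 and 5.00 in PDEF-PC3, not above the gauge, against 6.70 and 6.93 in VC-PC3, at least 2.17-fold lower (adjusted p = 5.02e-05). IRAK2, a kinase of the same pathway, fell by 1.54 (adjusted p = 2.81e-05), while IRAK1 rose by 0.59 (adjusted p = 0.0044) and TRAF6 by 0.29 (adjusted p = 0.0488).

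Of 17 transcription regulators, 9 fell, 4 rose and 4 did not pass, beside 24.0% lower and 26.7% higher of all genes. The subunit genes RELA (log2 fold change -0.18, limma, adjusted p = 0.125) and NFKB1 (-0.11, adjusted p = 0.439) did not pass, whereas REL rose by 0.72 (adjusted p = 0.000584). RELB fell by 0.74 (adjusted p = 0.000487), with only 1 of its PDEF-PC3 arrays above the gauge. NFKB2, above the gauge in all arrays, fell by 0.275 (adjusted p = 0.0309). The inhibitor genes that NF-kB itself induces fell. NFKBIA, the gene of the classical inhibitor, had 7.42 and 7.33 in PDEF-PC3 cells against 9.54 and 9.37 in VC-PC3 (adjusted p = 1.54e-05). TNFAIP3, which encodes the deubiquitinase A20, had 6.36 and 6.10 in PDEF-PC3 cells against 8.54 and 8.48 in VC-PC3 (adjusted p = 1.7e-05). NFKBIZ, a nuclear cofactor of NF-kB, was at least 5.05-fold lower, with 5.38 and 5.64 in PDEF-PC3 cells against 8.04 and 8.03 in VC-PC3 (adjusted p = 1.13e-05).

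The AP-1 genes moved in both directions. JUN had 11.63 and 11.81 in PDEF-PC3 cells, against 8.33 and 8.34 in VC-PC3, a higher signal (log2 fold change 3.38, standard error 0.094, adjusted p = 3.42e-06), and ATF3, a stress-induced partner, rose by 1.81 (adjusted p = 1.72e-05), with only 1 of its VC-PC3 arrays above the gauge. FOSL1 fell by 2.03, but with a standard error of 0.31 and an adjusted p of 0.00194, since its signals were uneven at 7.60 and 7.11 in PDEF-PC3 cells and 9.86 and 8.92 in VC-PC3. Leaving out PDEF-PC3 replicate 1 gave an adjusted p of 0.0754 for FOSL1, and leaving out PDEF-PC3 replicate 2 gave 0.113. CEBPB, which acts with NF-kB at the CXCL8 promoter, fell by 1.56 (adjusted p = 0.000214), and HIF1A, the hypoxia factor, fell by 1.21 (adjusted p = 7.34e-05).

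Chemokine transcripts are unstable, and proteins that bind their tails govern their decay. Of 8 such regulators, 4 fell, 1 rose and 3 did not pass, beside 24.0% lower and 26.7% higher of all genes. ZC3H12A, an endonuclease that degrades cytokine transcripts, fell by 1.48 (adjusted p = 8.07e-05), with 6.29 and 6.04 in PDEF-PC3 cells against 7.61 and 7.67 in VC-PC3. ZFP36L1, which marks such transcripts for decay, fell by 1.62 (adjusted p = 1.97e-05), and its relative ZFP36 had 5.52 and 5.70, not above the gauge, in PDEF-PC3 cells against 6.42 and 6.35 in VC-PC3 (adjusted p = 0.000769). MAPKAPK2, a kinase that stabilizes them, fell by 1.04 (adjusted p = 0.00021), and HNRNPD rose by 0.75 (adjusted p = 0.000711). The lower signals thus included genes that raise and genes that lower the level of chemokine transcripts. Without 1 array, 16 to 20 of the 39 genes were lower, and the number higher was 4 without either PDEF-PC3 array or VC-PC3 replicate 2 and 5 without VC-PC3 replicate 1.

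**Figure D4:**
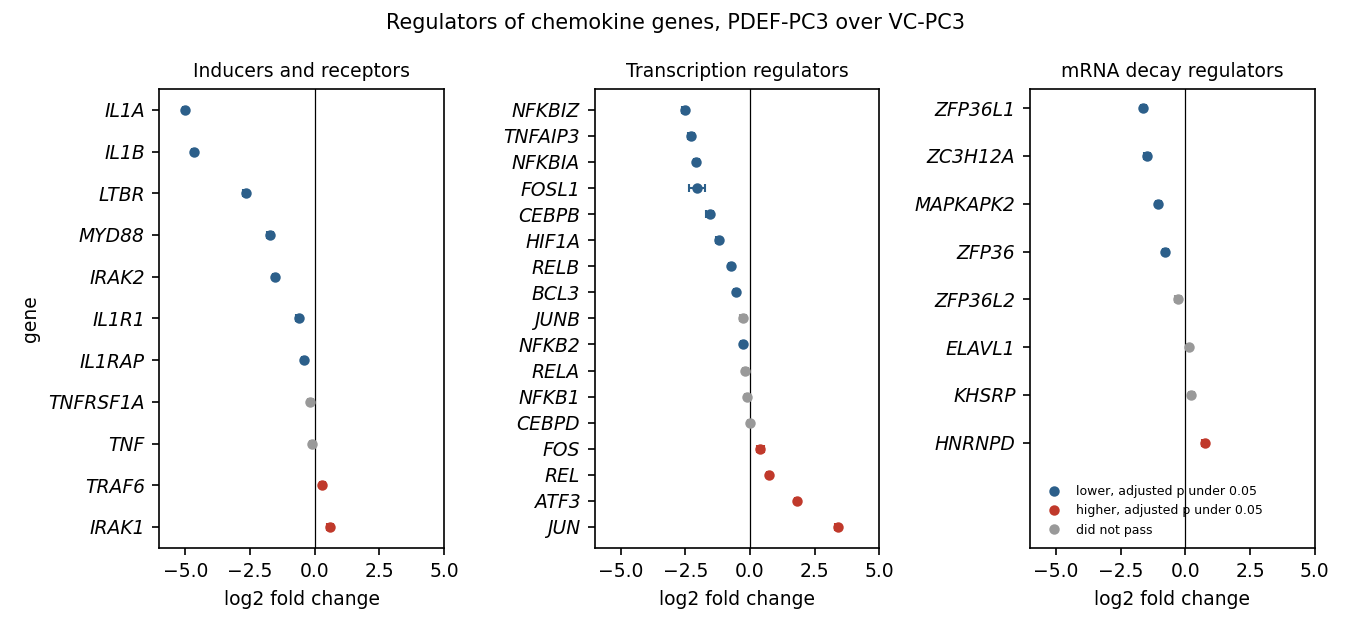
Log2 fold change of PDEF-PC3 over VC-PC3 (horizontal axis, with the standard error as a bar) of inducers, transcription regulators and mRNA decay regulators of chemokine genes (vertical axis), with genes lower at an adjusted p under 0.05 in blue, higher in red and the others in grey. IL1A lies farthest to the lower side and JUN, at 3.38, farthest to the higher side.

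Other genes with the NF-kB element in the upstream window were counted as well. Besides the members, 51 measured genes held GGAATTTCC, of which 13 fell, 14 rose and 24 did not pass. Of the 14239 genes with a window and an array value, 3460 fell and 4062 rose, which are like shares. The gauge of background was not applied to the 51 genes. CXCL10 and CXCL11 among them were not above it in any array, so a change there may have escaped measurement. The letters were also chosen after the sequences of the members were seen, so nothing is read from these counts or those that follow. The median log2 fold change was 0.01 for the 51 genes and -0.03 for the 14239. At least 2-fold lower were 6 of the 51, or 11.8%, against 6.17% of the 14239 genes. These 6, named after their values were seen, were DUSP6, OAS3, NFKBIZ, ICAM1, NFKBIA and PTPN2. ICAM1, which encodes the adhesion receptor that neutrophils bind, fell (log2 fold change -2.25, standard error 0.13, limma, adjusted p = 3.21e-05). At least 2-fold higher were 5 of the 51, or 9.8%, against 9.13% of the 14239 genes, led by CCDC3 with a log2 fold change of 2.69 (adjusted p = 4.24e-05).

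Last, the genes with array profiles most like that of CXCL8 were identified by the Euclidean distance over the 4 arrays, after each gene was centred on its own mean, among 9405 genes above the gauge in both VC-PC3 arrays. The 5 nearest were the claudin gene CLDN11, the aminopeptidase gene ANPEP, FERMT1, which encodes an integrin activator, PLEK2 and SLFN11, at distances of 0.17 to 0.21 on the log2 scale. CLDN11, the nearest, had signals of 6.96 and 6.97 in PDEF-PC3 cells, against 11.15 and 11.04 in VC-PC3. With 2 arrays in each group, such a distance mainly reflects a fold change of similar size. The PDEF-PC3 signals of ANPEP, FERMT1 and SLFN11 were not above the gauge, so their distances rest on background signal. The same holds for CXCL2, at rank 49 and a distance of 0.69, and the ranks count such genes too. Of the other cluster genes, CXCL6 was the nearest at rank 75, followed by CXCL1 at rank 89, CXCL5 at rank 236 and CXCL3 at rank 283.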

How the data were processed

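Total RNA of PDEF-PC3 and VC-PC3 cells was hybridized to HuGene-1.0-st arrays, 2 in each group. The authors deposited log2 signals of 33297 probe sets, made with Transcriptome Analysis Console per the submitters' processing notes. Its version, background correction and normalization were not given in the sources used here. Values ranged as log2 data do. The medians of the 4 arrays were 5.41 to 5.46, and values were taken as deposited, so a shift of all genes one way would have been lost. Names came from the platform annotation, and the 19460 probe sets with 1 symbol were kept. Where a gene had more than 1 of these (769 genes), that of highest mean stood for it.

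Groups were compared with limma 3.58.1 (R 4.3.3, lmFit and eBayes, two-sided, 2 residual and 4.23 prior degrees of freedom), which was tested on simulated data, with Benjamini-Hochberg adjustment over 18417 genes and a threshold of 0.05. The number of arrays limits the precision. The members, lists, motifs and the rules for naming genes were chosen with earlier results of these data known, the motifs also after the sequences were seen. From each list the text names up to 8 genes that passed, differed by 2-fold and were above the gauge in both arrays of a group, and the receptors and proteases of members. Other listed genes in the text were named after their values were seen. Of the listed chemokine genes, receptors and regulators, 7 had no probe set with 1 symbol and were not used here. Upstream windows came from RefSeq (GRCh38.p14) and were aligned with Biopython 1.88 (match 1, mismatch -1, gap opening -3, extension -0.5). Alternatives were median centring, quantile normalization, the mean of all probe sets, leaving out dim genes, a trend in the variance prior, the replicate number as a block and leaving out each array.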

Additional observations from a re-analysis of the deposited data

How the results depend on the processing

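The count of 6 chemokine genes at least 2-fold lower and 0 at least 2-fold higher was the same under median centring, quantile normalization, the mean of all probe sets and without any 1 array. Over these settings and the replicate block, 77 log2 fold changes of members moved by no more than the SD between arrays. Most of these could not move further. Each member had 1 probe set, and the replicate block leaves the fold changes as they are. Leaving out 1 array cannot move a fold change beyond this SD. The log2 fold changes of CXCL1 (-3.26), CXCL5 (-2.41) and CXCL6 (-3.43) moved more under quantile normalization. With the 95th percentile of the olfactory receptor genes as the gauge, 8 members were above background, against 6.
Counts in the dim lists depended on the setting. Other chemokine genes lower numbered 6, against 3 after quantile normalization. Receptor genes lower numbered 2, against 1 after quantile normalization, and 1 receptor gene was higher. Fewer genes of these lists were called without 1 array. With dim genes left out these counts were 0, since none of the genes of either list was kept in that fit. Genes around the cluster numbered 7 lower and 8 higher, against 4 and 5 with dim genes left out, and 3 to 5 and 5 to 6 without 1 array. Regulator genes higher numbered 7, against 4 to 5 without 1 array. Fewer genes are tested with dim genes left out and fewer arrays remain without 1 array, and the cause of the other shifts was not tested. Over all genes, 4419 were lower and 4918 higher, against 2326 to 2856 and 3010 to 3635 without 1 array, 3009 and 3928 with dim genes left out. Among the named genes of the lists that passed, 4 calls were lost, for FOSL1 and EPCAM without 1 array.
The replicate numbers are shared by the groups, but no source says that they pair the arrays, and the differences between replicate 1 and replicate 2 were correlated between the groups across genes with r = 0.022. With the replicate block, 2 other chemokine genes, 1 receptor gene and 4 genes around the cluster were lower. The counts of members could not change, since each group holds both replicate numbers and these counts rest on fold changes alone.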
